A study of Homo sapiens with 6 samples.

Results

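The MYC and MAX network is a small family of basic helix-loop-helix zipper transcription factors, and its transcripts were followed here in REH, a human line grown from the B-cell precursor form of acute lymphoblastic leukaemia. Its 10 members were chosen by gene symbol, as the rows named MYC, MYCN, MAX, MXD1, MXD3, MXD4, MXI1, MNT, MGA and MLX among the 26364 genes of the authors' deposited table. The shSTAT3 cells had received, by lentivirus, a short hairpin RNA directed at the transcription factor STAT3 (3 libraries), and the scramble cells a scramble hairpin (3 libraries). Both kinds of cells went through 3 days of puromycin selection and a step that removed dead cells, and the 3 replicates of each group came from independent experiments, per the labels. The labels do not say whether 1 hairpin sequence or several were used.

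MYC and its paralogue MYCN bind DNA and activate transcription only as partners of MAX, at a short sequence called the E-box, whose core form is CACGTG. The MXD proteins (MXD1, MXI1, MXD3 and MXD4) and MNT compete for MAX and repress the same kind of site by bringing in the SIN3 corepressor with its histone deacetylases. MGA joins MAX to a Polycomb complex, and MLX, a MAX-like protein, pairs with the glucose sensors MLXIP and MLXIPL and with some of the MXD proteins and MNT. In leukaemic B-cell precursors MYC is known as a driver of growth, and it is also a textbook target of STAT3.

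The table gives for each gene a mean normalized count over all 6 libraries, a log2 fold change, a p and an adjusted p, and no value per library, so no replicate can be shown on its own. The total of the means was 11485068 normalized counts. STAT3 itself stood at 29.8% of scramble per the authors' deposited table (log2 fold change −1.75, adjusted p = 7.78e-74), and the direction of all fold changes was read from it. The B-cell precursor identity was visible in 11 of 12 markers with means between 1289 and 20516, while VPREB1 was listed at 0. At an adjusted p under 0.05, 2 of the 11 rose and 6 fell (72.7% called, against 44.5% of all tested genes). Markers of other lineages were not all low: the myeloid genes MPO, ITGAM, CST3 and CSF1R had means of 2330, 410, 128 and 88.9, and PDGFRB, COL1A1 and CD4 had 806, 51.3 and 26.6, per the authors' deposited table. The T-cell markers CD3D and CD3G, and the fibroblast and epithelial markers COL1A2, DCN, EPCAM and KRT18, are listed at 0, but so is EIF4A1, a translation factor that every cell uses, so a 0 does not show absence. Summed over each whole list, the means were 3023 for 11 myeloid, 27.8 for 6 T-cell and 858 for 8 fibroblast and epithelial markers, against 80576 for the B-cell precursor markers. Among tested markers, 1 of 4 myeloid genes rose and 2 fell, both fibroblast genes (COL1A1 and PDGFRB) fell, and the 1 T-cell gene did not pass. Of all tested genes, 21.3% were called higher and 23.2% lower. A further 4 myeloid markers, LYZ, CEBPA, S100A8 and S100A9, carry no p and were lower by sign, as were 64 of the 74 genes that lack only the p. Within those genes a single library, not assigned to a group here, stood apart. Of 550 reads recovered from 23 of the 74, it held 432 (78.5%), a share that covers only genes lacking a p. The part of myeloid RNA or of that library in the results below was not tested. None of the 10 network genes lacks a p.

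Of the 9 network genes with an adjusted p, 3 fell and 1 rose in the shSTAT3 cells at an adjusted p under 0.05 per the authors' deposited table (DESeq2 with Benjamini-Hochberg adjustment). This share, 44.4%, is close to the background, since 44.5% of all 12061 tested genes passed, with 21.3% higher and 23.2% lower. A fall of at least 1.5-fold was reached by 1 member, MXD3, and by 10.4% of all tested genes. The median log2 fold change of the 9 genes was 0.08, against 0.0027 for all tested genes. In bulk RNA, fewer cells of a type and less RNA per cell cannot be told apart.

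**Figure D1:**
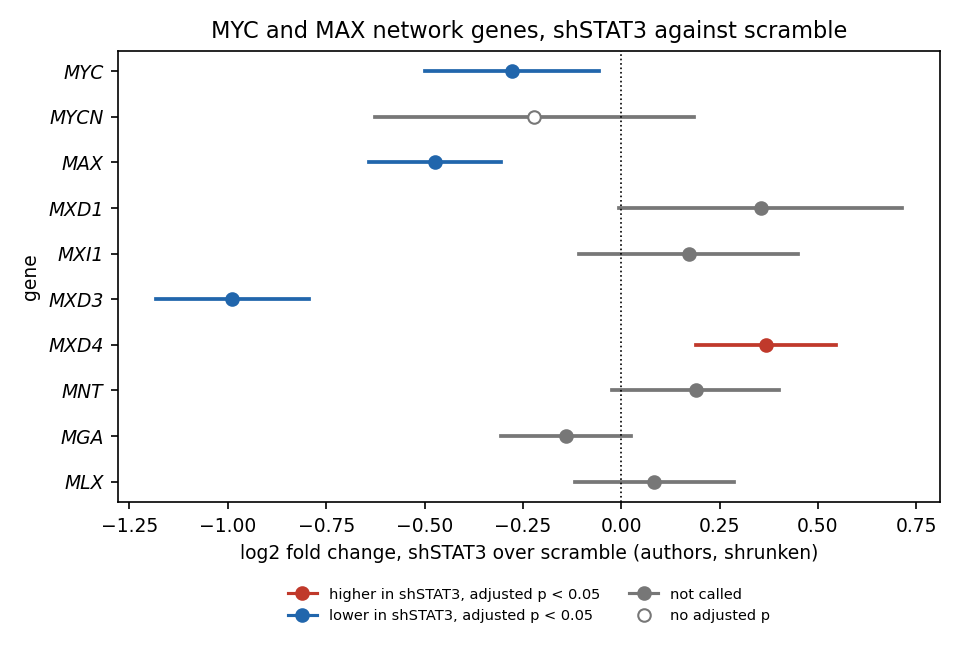
Log2 fold change of each network gene, shSTAT3 over scramble, from the authors' deposited table (horizontal axis), with the 95% interval implied by its p (line); genes run down the page. MXD3, MAX and MYC lie left of 0 and MXD4 right of it with intervals that leave 0 out, and the open circle marks MYCN, which has no adjusted p. MYCN had 7 reads in all and its fold change is shrunken, so its interval does not bound the true change.

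MYC fell to 82.5% of its scramble level, with a log2 fold change of −0.28 and a mean of 4465 normalized counts per the authors' deposited table (adjusted p = 0.0329). Its 95% interval ran from −0.50 to −0.06 on the log2 scale, that is from 70.8% to 96.1% of scramble. MYC lies on chromosome 8 from 127735434 to 127741434 on the plus strand (GRCh38, GENCODE release 29). It was among the most abundant transcripts, as only 3.17% of tested genes had a higher mean. The call is lost at an adjusted p of 0.01.

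The error of the MYC fold change was wide for so abundant a gene. Its implied standard error was 0.113 on the log2 scale, against a median of 0.0729 for the 478 tested genes whose mean lay within 1.5-fold of that of MYC. Of those genes 97.5% had a smaller standard error. The other 8 tested members lay between 19.7% and 74.9% on the same measure, so MYC alone of the 9 stood near the upper edge.

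**Figure D2:**
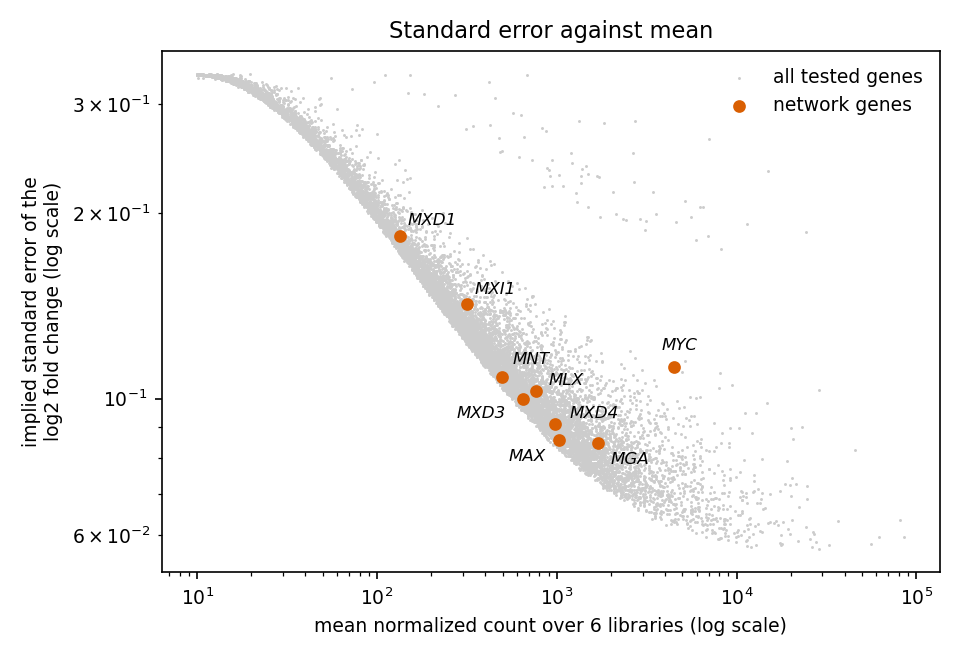
Standard error of the log2 fold change implied by the authors' fold change and p (vertical axis, log scale) against the mean normalized count over 6 libraries (horizontal axis, log scale). Grey points are all tested genes and orange points the 9 tested network genes; MYC, at 0.113, lies above the main band while the others lie within it.

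MYCN was close to absent. Its mean of 1.16 normalized counts per the authors' deposited table corresponds to 7 reads over all 6 libraries. The arithmetic of the mean places them as 3, 2, 1, 1, 0 and 0 reads, in libraries that were not assigned to a group here. The library that stood apart held 1 of the 7. MYCN had a log2 fold change of −0.22 and a p of 0.286 with no adjusted p per the authors' deposited table, so no difference was detectable at this depth. The antisense gene MYCNOS, which overlaps the start of MYCN, was listed at 0. MYCL, the remaining MYC paralogue and not a member here, had a mean of 9.91 and a fold change of −0.61 on the log2 scale per the authors' deposited table, p = 0.0674 without adjusted p.

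MAX, the shared partner, fell to 72.0% of scramble per the authors' deposited table (log2 fold change −0.47, adjusted p = 2.89e-07). Its 95% interval was −0.64 to −0.31, and its mean was 1023 normalized counts. MAX is a minus-strand gene of chromosome 14, between 65006174 and 65102695. The intervals of MAX and MYC overlap, and the difference between these fold changes was not tested, because 2 genes of the same libraries share their error.

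Among the MXD repressors the members moved apart. MXD3 had the largest change in the network and fell to 50.4% of scramble per the authors' deposited table (log2 fold change −0.99, adjusted p = 2.12e-21). Its 95% interval was −1.18 to −0.79, and only 2.96% of tested genes had a lower fold change. In mouse, MXD3 is known to be expressed in dividing cells, in S phase, whereas other MXD genes are known from differentiating cells. It had a mean of 650 normalized counts per the authors' deposited table.

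MXD4 rose 1.29-fold, with a log2 fold change of 0.37 and a mean of 977 normalized counts per the authors' deposited table (adjusted p = 0.000246). The 95% interval of MXD4 was 0.19 to 0.55. MXD1 had nearly the same log2 fold change, 0.35, per the authors' deposited table but did not pass (adjusted p = 0.104). With a mean of 134 it was the scarcest of the tested members, and its interval reached from −0.005 to 0.71. MXI1 was at 0.17 per the authors' deposited table (95% interval −0.11 to 0.45, adjusted p = 0.337). The interval of MXD3 lies wholly below those of MXD1, MXI1 and MXD4, though the differences themselves were not tested.

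At the MXD3 locus, on the minus strand of chromosome 5 between 177301461 and 177312757, 40.4% of the exon bases also belong to exons of RAB24 or PRELID1. RAB24, a small GTPase gene on the same strand, was at −0.0013 and PRELID1, which encodes a mitochondrial lipid transfer protein and lies on the opposite strand, at 0.16 per the authors' deposited table (adjusted p = 0.995 and 0.203). Neither overlapping gene passed the test. How reads in these bases were assigned is not given in the sources used here, so the level of MXD3 is uncertain.

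All 12 proliferation markers, among them TOP2A, BIRC5 and MCM6, also fell, where 23.2% of all tested genes were called lower. Their median log2 fold change was −0.94, with a range from −1.77 to −0.50. MXD3, at −0.99, lay inside this range, and the fold changes of MAX, MYC and MXD4 lay outside it. The 95% interval of MAX, −0.64 to −0.31, reached into the range, and that of MYC, −0.50 to −0.06, ended at its edge. The part of proliferation in the falls of MXD3, MAX and MYC was not tested.

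MNT, MGA and MLX did not pass. MNT, a broadly expressed MAX-binding repressor, was at 0.19 per the authors' deposited table (95% interval −0.02 to 0.40, adjusted p = 0.148). MGA was at −0.14 with a mean of 1694 per the authors' deposited table (95% interval −0.31 to 0.03, adjusted p = 0.171). MLX was at 0.08 per the authors' deposited table (95% interval −0.12 to 0.29, adjusted p = 0.535). For MGA and MLX the intervals leave out a change of 1.5-fold in either direction, and for MNT and MXI1 likewise. MLX lies 178 kb from STAT3 on chromosome 17, from 42567068 to 42573239 on the plus strand, and 18.1% of its exon bases are shared with PSMC3IP on the opposite strand, a recombination cofactor gene that fell by 0.40 on the log2 scale per the authors' deposited table (adjusted p = 0.0288).

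Per length, MYC dominated the network. Divided by the merged exon length of each gene, the mean level of MYC was 1488 normalized counts per kb, against 231 for MAX and 181 for MLX. MXD4 and MXD3 followed at 138 and 126 per kb, then MGA at 96.0, MXI1 at 68.3, MNT at 56.9 and MXD1 at 21.0, and MYCN came last at 0.447. These levels carry no replicate error, and the order of MXD3 and MXD4 and that of MXI1 and MNT depend on the length used.

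Group levels can be worked out from the mean and the fold change, as values that the shrinkage of the fold change pulls together. On this scale MYC stood at 1345 per kb in shSTAT3 cells and at 1631 per kb in scramble cells, and MAX at 193 and 268. MYC therefore exceeded MAX 6.96 times in shSTAT3 cells and 6.08 times in scramble cells. The summed level of the 4 MXD genes was 337 per kb in shSTAT3 cells, 90.6% of the 371 per kb in scramble cells. MXD3 gave 25.1% of that sum in shSTAT3 cells and 45.2% in scramble cells, and MXD4 gave 46.3% and 32.6%. Per kb the ratio of MXD4 to MXD3 was 1.84 in shSTAT3 cells and 0.721 in scramble cells. With the longest transcript as the length the same ratio was 1.36 in shSTAT3 cells and 0.532 in scramble cells, so the order turned in the same way. Neither length leaves out bases shared with other genes, which are 40.4% of the exon bases of MXD3 and 1.13% of those of MXD4. The level of MXD3, its share of the sum and its order with MXD4 within each group are therefore uncertain. No test is attached to these sums and ratios.

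**Figure D3:**
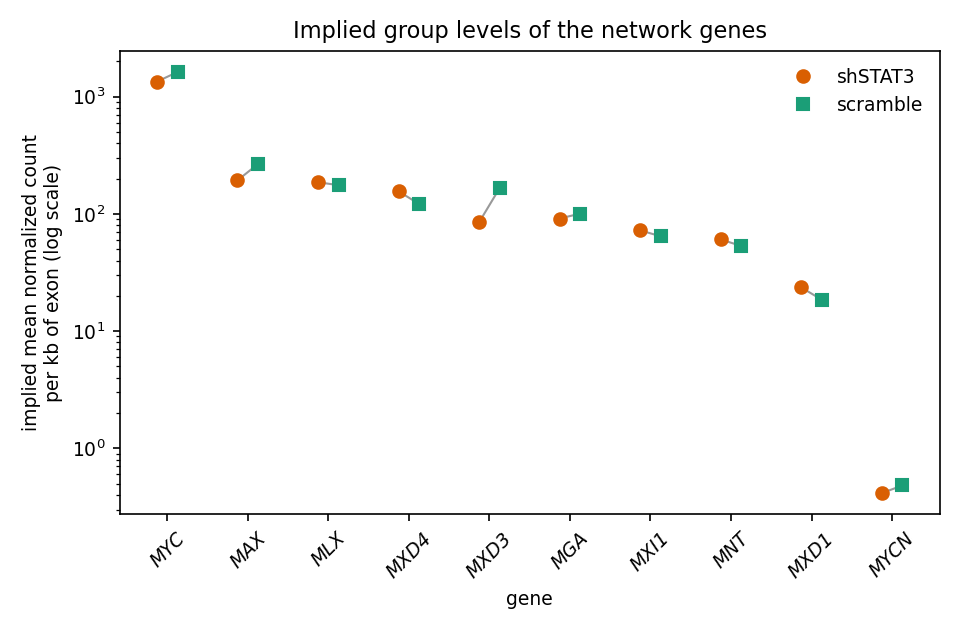
Level of each network gene in shSTAT3 cells (circles, left of each pair) and scramble cells (squares, right), implied by the authors' mean and fold change, as mean normalized count per kb of merged exons (vertical axis, log scale), in order of mean level. MXD4 lies above MXD3 in shSTAT3 cells and below it in scramble cells, and MYC lies above all others. The level of MXD3 is uncertain, as 40.4% of its exon bases are shared with other genes. There is no error bar because the table has no value per library.

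The E-box that these factors bind stands before some of their own genes. RefSeq promoter windows on GRCh38.p14, from 250 bases before to 50 bases after each start, were found for 9 of the 10 members, all but MYC (14 windows). Searched on either strand, which is the same for a palindrome, CACGTG was in 3 of the 14 windows, those of MXD4, MNT and MLX, and in 7.26% of all 35116 windows. The STAT consensus TTCNNNGAA, also palindromic, was in none of these 14, which include none of MYC, and in 7.66% of all windows. CACGTG was in no window of MAX, which fell, or of MXD1 and MXI1, whose positive fold changes did not pass. The stretches around the E-box are shown, with the bases before MXD3, the member that fell most, beside them. These were chosen with the fold changes known. They run 5′ to 3′ on the strand of the gene, with the E-box in capitals, and end before the first annotated start. The MXD4 stretch is chr4:2262312-2262359 on the minus strand, the MNT stretch is chr17:2401218-2401283 on the minus strand and the MLX stretch is chr17:42567020-42567067 on the plus strand. The bases before the MXD3 start, chr5:177312758-177313002 on the minus strand, have no capitals, as neither motif is in them.
MXD4: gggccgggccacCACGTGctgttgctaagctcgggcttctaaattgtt
MNT: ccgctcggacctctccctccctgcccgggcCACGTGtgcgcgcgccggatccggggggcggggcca
MLX: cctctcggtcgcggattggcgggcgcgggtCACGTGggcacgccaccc
MXD3: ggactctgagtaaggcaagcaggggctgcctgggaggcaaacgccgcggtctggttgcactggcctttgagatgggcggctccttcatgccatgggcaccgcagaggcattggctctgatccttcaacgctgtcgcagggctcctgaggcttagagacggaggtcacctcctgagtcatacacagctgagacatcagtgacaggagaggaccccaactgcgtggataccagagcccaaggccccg

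The E-box ends 232 bases before the RefSeq start used for MXD4, 187 before that used for MNT and 44 before that used for MLX. In GENCODE these genes begin nearer to the E-box, at 2262294 for MXD4, 2401118 for MNT and 42567068 for MLX. Of these 3 genes, MXD4 passed the test, and MNT and MLX did not. A match of letters is not a bound site.

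Of 8 other tested zipper factors that read E-boxes, 5 rose and 2 fell (87.5% called against 44.5% of all tested genes), with a median log2 fold change of 0.24. At an adjusted p under 0.01 the count was 4 of 8, against 34.1% of all tested genes, and with at least a 1.5-fold change 2 of 8, against 17.3%. MLXIP, also called MondoA, the partner through which MLX responds to glucose, rose 1.94-fold with a mean of 4136 per the authors' deposited table (log2 fold change 0.95, adjusted p = 7.87e-25). Only 1.90% of tested genes had a higher fold change than MLXIP. The lipogenic factor gene SREBF1 fell to 48.1% of scramble per the authors' deposited table (log2 fold change −1.06, adjusted p = 6.74e-30). USF1, a widely expressed E-box factor, rose by 0.40 on the log2 scale per the authors' deposited table (adjusted p = 3e-05). MLXIPL, the second glucose-responsive partner of MLX, had a mean of 1.01, which corresponds to 6 reads over all libraries.

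Target genes of the MLXIP and MLX pair gave 2 tested members, of which 1 fell. TXNIP, the thioredoxin-binding protein gene that this pair is best known to activate, fell to 64.8% of scramble with a mean of 1478 per the authors' deposited table (log2 fold change −0.63, adjusted p = 2.77e-09). MLXIP and TXNIP thus moved in opposite directions. KLF10 did not pass, at −0.29 per the authors' deposited table (adjusted p = 0.244), ARRDC4 and PKLR had means of 0.768 and 1.09 and no adjusted p, and THRSP was listed at 0.

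The SIN3 and histone deacetylase corepressor, through which the MXD proteins and MNT act, had 4 of 18 tested genes higher and 8 lower, with a median log2 fold change of −0.16. This is 66.7% called, against 44.5% of all tested genes (21.3% higher and 23.2% lower). The scaffold genes parted. SIN3B rose 1.52-fold and SIN3A, outside the rule for named genes, fell to 72.4% of scramble per the authors' deposited table (log2 fold changes 0.60 and −0.47, adjusted p = 3.47e-11 and 6.31e-08). The deacetylase gene HDAC2 fell to 65.0% and the histone chaperone gene RBBP7 to 60.2% of scramble per the authors' deposited table (adjusted p = 1.87e-15 and 3.03e-17). HDAC1, also outside that rule, was at 0.02 per the authors' deposited table (95% interval −0.12 to 0.17, adjusted p = 0.829).

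Partners of MGA in its Polycomb complex had 1 of 12 tested genes higher and 5 lower, with a median of −0.15 and 50% called, near the 44.5% of all tested genes. TFDP1, the partner of E2F factors, CBX3, a chromatin reader of methylated histone H3, and PCGF6, the Polycomb ring finger protein particular to this complex, fell to 70.6%, 75.0% and 65.9% of scramble per the authors' deposited table (adjusted p = 2.13e-08, 8.23e-05 and 0.000206). The member that rose was E2F6, the repressive E2F of the complex, named after its value was seen, at 0.35 per the authors' deposited table (adjusted p = 0.0257).

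Cofactors of MYC had 5 of 20 tested genes higher and 3 lower (40% called against 44.5% of all tested genes), a range from −0.41 to 0.49 and a median of 0.04. EP300, a histone acetyltransferase, rose 1.40-fold, while SMARCB1 of the SWI/SNF remodeller and RUVBL1, an ATPase of the TIP60 complex, fell to 75.3% and 76.3% of scramble per the authors' deposited table (adjusted p = 5.52e-10, 2.94e-07 and 0.000473).

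Of genes that control the stability of the MYC protein, 5 of 20 tested were higher and 4 lower, with a median of 0.0039. The share called, 45%, is near the 44.5% of all tested genes. FBXW7, the ubiquitin ligase subunit that marks phosphorylated MYC for degradation, rose 1.76-fold with a mean of 2651 per the authors' deposited table (log2 fold change 0.81, adjusted p = 1.15e-26). SET, an inhibitor of the phosphatase PP2A, fell to 55.7% of scramble per the authors' deposited table (log2 fold change −0.85, adjusted p = 6.74e-43). AURKA, a mitotic kinase that also shields MYC family proteins from FBXW7, fell to 52.5% of scramble per the authors' deposited table (log2 fold change −0.93, adjusted p = 7.61e-18). KIAA1524, which encodes the PP2A inhibitor CIP2A and falls outside the rule for named genes, was at −0.57 per the authors' deposited table (adjusted p = 2.01e-07). MYC protein was not measured.

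Of genes that MYC is known to activate, 9 of 34 tested rose and 10 fell (55.9% called against 44.5% of all tested genes), with a median log2 fold change of −0.03. NCL, which encodes nucleolin, NOP58 of small nucleolar ribonucleoproteins and SHMT2, a mitochondrial serine enzyme, fell to 65.6%, 67.7% and 70.9% of scramble per the authors' deposited table (adjusted p = 3e-17, 6.41e-12 and 5.6e-08). The telomerase gene TERT, named after its value was seen, rose 1.42-fold per the authors' deposited table (adjusted p = 2.66e-07). ODC1 and CDK4, classical targets also named afterwards, were at 0.11 and 0.13 per the authors' deposited table and did not pass (adjusted p = 0.250 and 0.158). EIF4A1 was listed at 0 and left out of the count. Genes that MYC is known to repress gave 1 of 9 tested higher and 1 lower (22.2% called against 44.5%). FTH1, the ferritin heavy chain gene, rose 1.23-fold and NDRG2, with a mean of only 21.6, had a log2 fold change of −1.11 per the authors' deposited table (adjusted p = 0.000115 and 0.00162).

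**Figure D4:**
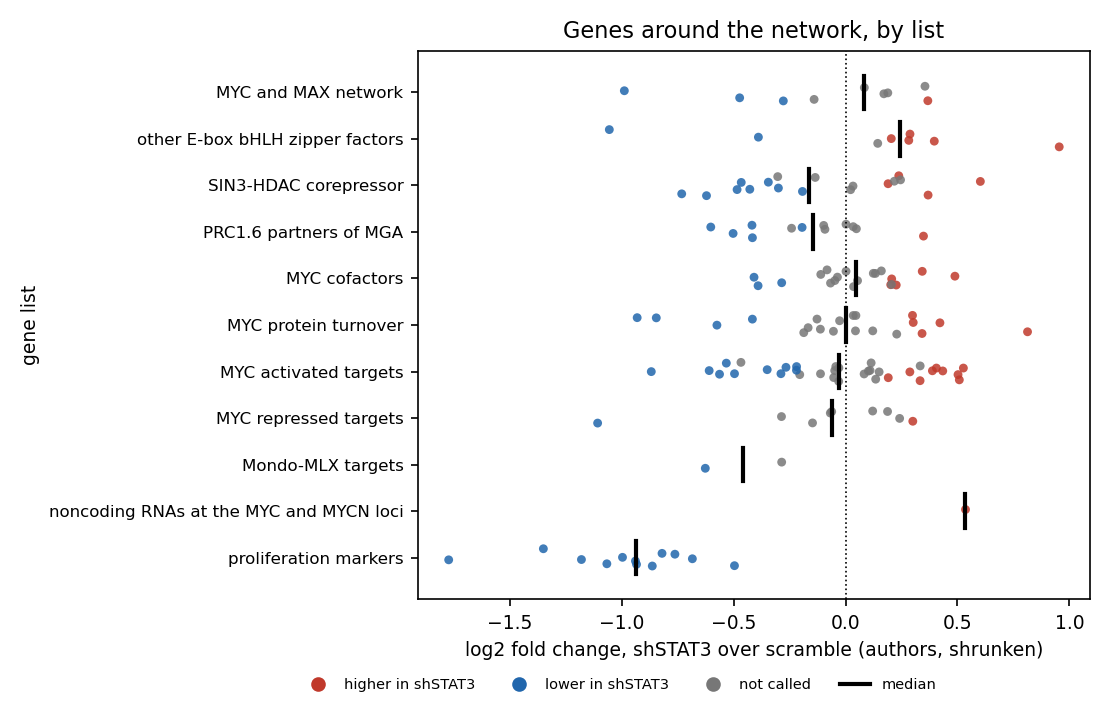
Log2 fold change of each tested gene, shSTAT3 over scramble, from the authors' deposited table (horizontal axis), by list (rows), with red for higher, blue for lower and grey for not called at an adjusted p of 0.05, and a black bar at the median. The network genes spread from −0.99 to 0.37, the genes that MYC activates centre at −0.03, and the proliferation markers all lie below 0.

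Beside MYC lies PVT1, a long noncoding RNA gene that starts 53.1 kb beyond the end of MYC on the same strand. As the 1 tested noncoding gene of the MYC and MYCN loci, PVT1 rose 1.45-fold, with a mean of 314 per the authors' deposited table (log2 fold change 0.53, adjusted p = 0.000221). The 95% interval of PVT1, 0.28 to 0.79, and that of MYC do not overlap, though the difference itself was not tested. CASC11 had a mean below 1, and CCAT1 and MYCNUT were listed at 0.

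Of the 20 protein-coding genes that flank the 10 members, 17 were tested, and 3 rose and 6 fell (52.9% called against 44.5% of all tested genes). The flanks of the members that moved did not all move with them. Next to MXD3, the histone methyltransferase gene NSD1 rose by 0.33 and LMAN2 was at 0.14 per the authors' deposited table (adjusted p = 4.03e-05 and 0.155). Next to MAX, the fucosyltransferase gene FUT8 fell by 0.41 and RAB15 was at −0.21 per the authors' deposited table (adjusted p = 0.00175 and 0.155). Next to MXD4, HAUS3, of the augmin complex, fell by 0.37 per the authors' deposited table (adjusted p = 0.0223), and ZFYVE28 was not tested.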

How the data were processed

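Total RNA from 6 REH cultures (3 shSTAT3, 3 scramble) was sequenced, and the authors deposited 1 table of their own comparison. Tools listed in the submitters' processing notes include DESeq2, featureCounts, Bowtie2, Trimmomatic, Picard and bcl2fastq 2.19, with build hg38. Annotation, strand setting and model are not given in those notes or the labels. Each mean is a normalized signal (counts over size factors), per the file headers. The fold change is on the log2 scale, computed and shrunken by the authors, and the deposited p-value and its adjusted form are theirs. The numerator is not stated: STAT3 is negative, so negative fold changes were read as lower in shSTAT3.

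Of 26364 genes, 12061 have an adjusted p (called tested, means of at least 10.0), 5640 have a p alone, 74 a fold change alone and 8589 a mean of 0. A gene is called at an adjusted p under 0.05. Standard errors are the fold change divided by the normal quantile of p, so errors and intervals are those of shrunken values. Group levels follow from mean and fold change with groups of equal size. Size factors between 0.935 and 1.13 and whole reads were solved from low means within a tolerance of 4e-09. Positions and lengths came from GENCODE 29 on GRCh38, and promoters from RefSeq (GRCh38.p14). RETREG3 was matched by its older symbol.

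The members and the 14 lists were chosen with earlier results of these data known. Named genes are the members, STAT3, up to 3 called genes per list, by adjusted p, and flanking genes. The planned fit on values per library could not be run. Code was tested on simulated data, with scipy 1.17.1, pandas 2.3.3, numpy 2.4.6 and matplotlib 3.10.9 under Python 3.11.15.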

Additional observations from a re-analysis of the deposited data

How the results depend on the processing

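The 4 calls among the members held with p adjusted over every gene that has one, at a mean of at least 50, and with fold changes centred on genes with a mean of at least 1000. In the first of these settings MYC passed narrowly (DESeq2 p with Benjamini-Hochberg adjustment, 0.0478). There, 4 of 10 members were called, against 28.7% of all genes with a p. At an adjusted p under 0.01 MYC was lost. With at least a 1.5-fold change required, 1 of 9 members (MXD3) and 13 of 123 tested list genes passed, where 17.3% of all tested genes did, against 65 of the 123 without that bound. Centring is the only setting that changes a fold change, and it reversed none of the 43 genes rerun, which leave out MYCN and the flanking genes; it left 5 of 8 other zipper factors called, against 7 before. Per kb of the longest transcript the levels were 1887 for MYC, 324 for MAX, 298 for MLX, 285 for MXD3, 231 for MXD4, 117 for MGA, 99.4 for MNT, 90.7 for MXI1, 23.9 for MXD1 and 0.447 for MYCN. No paired analysis was possible because the table holds no value per library, and leaving out replicates was not run for the same reason. The shrinkage of fold changes and the low mean of MYCN limit what can be seen.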

Other observations

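MYC was not the only gene around the network with a wide error. Among genes of the 9 network lists, the standard error of LDHA, the lactate dehydrogenase gene, was 3.79 times the median of tested genes with a like mean. That of the cell cycle inhibitor gene CDKN1A was 2.87 times and that of the hexokinase gene HK2 2.75 times the median of theirs. LDHA was at −0.87 per the authors' deposited table and passed (adjusted p = 0.00336), while CDKN1A, at 0.12, and HK2, at −0.47, did not (adjusted p = 0.682 and 0.0849). These genes were chosen after their errors were seen.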
